A study of Mus musculus with 12 samples.

Results

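The midbrain-hindbrain organiser genes were followed in mouse embryonic stem cells of 2 lines, HM1 and CAG150, that had been differentiating into neurons for 4 or 6 days. The set comprised 10 genes named by symbol: En1, En2, Wnt1, Fgf8, Fgf17, Pax2, Pax5, Pax8, Gbx2 and Otx2. Every probe set whose only gene symbol in the platform annotation was one of these was taken, which gave 12 probe sets of 9 genes among 45037 probe sets and 18193 named genes. No probe set carried Pax2 as its only symbol, and Pax2 is not analysed here. A filter on dim genes kept 7 of the 10, En1, En2, Wnt1, Fgf8, Fgf17, Gbx2 and Otx2, among 12280 genes tested. The set was chosen from earlier results on these same arrays, namely differences in intensity between the lines and days, so the values of the members are given as a description, without p-values, and support nothing beyond themselves.

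HM1 is a male, Hprt-deficient line of mouse embryonic stem cells, and it served as the control. CAG150 cells carry expanded CAG repeats, per the series title. That the repeats lie in Htt, which is mutated in Huntington's disease, is known from outside the labels. Each line had 3 arrays of total RNA at each day, 12 arrays in all. All groups had been put through neuronal differentiation, undifferentiated cells were not analysed here, and each condition was represented by 1 line. The sample titles were used for the groups, although the descriptions of the 3 HM1 arrays titled day 6 speak of the earlier day and the descriptions of all day 6 arrays give the same replicate number. Nothing says that the arrays of a group came from separate cultures, so every spread and p-value covers only these arrays and may be technical.

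In the embryo the boundary between midbrain and hindbrain is a signalling centre. Otx2, a homeodomain factor, marks forebrain and midbrain on its front side, Gbx2 marks the front of the hindbrain on its back side, and each represses the other. At their border Wnt1 is secreted on the midbrain side and Fgf8, with its relatives Fgf17 and Fgf18, on the hindbrain side, while the homeodomain factors En1 and En2 and the paired-box factors Pax2, Pax5 and Pax8 are made on both sides and keep the centre going. Several of the members have other uses: Otx2 is also made in the early epiblast, Fgf8 in the primitive streak, and Pax2 and Pax8 in kidney and ear.

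The promoters of 4 members are shown because these genes carried the main patterns: Wnt1 and En1, which were high together at day 4, and Otx2 and Gbx2, the pair on either side of the border. The sequences are the 250 bases before a start site, from RefSeq on GRCm38.p6, written along the gene's strand. Capitals mark matches to TAATCC (a motif of OTX factors), TAATTA (a core bound by many homeodomain factors, among them engrailed and Gbx factors) or CTTTGAT (a motif of TCF/LEF factors), searched on both strands.
Wnt1 promoter, chr15:98789607-98789856 (+ strand): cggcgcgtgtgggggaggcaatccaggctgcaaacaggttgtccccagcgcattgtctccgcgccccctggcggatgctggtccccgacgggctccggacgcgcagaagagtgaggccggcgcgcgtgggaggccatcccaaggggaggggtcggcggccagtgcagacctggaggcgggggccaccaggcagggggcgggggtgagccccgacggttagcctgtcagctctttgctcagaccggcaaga
En1 promoter, chr1:120602237-120602486 (+ strand): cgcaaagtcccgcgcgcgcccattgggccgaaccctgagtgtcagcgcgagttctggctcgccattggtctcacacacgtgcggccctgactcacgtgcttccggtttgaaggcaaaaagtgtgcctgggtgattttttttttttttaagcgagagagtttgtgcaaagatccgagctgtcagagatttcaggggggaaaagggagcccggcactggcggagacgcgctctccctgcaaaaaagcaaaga
Otx2 promoter, chr14:48665110-48665359 (- strand): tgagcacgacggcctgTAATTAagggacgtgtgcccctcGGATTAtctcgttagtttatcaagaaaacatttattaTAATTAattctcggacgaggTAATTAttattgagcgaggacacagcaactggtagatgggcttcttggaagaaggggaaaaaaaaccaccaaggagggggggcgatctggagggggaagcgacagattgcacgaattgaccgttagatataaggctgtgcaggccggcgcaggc
Gbx2 promoter, chr1:89931177-89931426 (- strand): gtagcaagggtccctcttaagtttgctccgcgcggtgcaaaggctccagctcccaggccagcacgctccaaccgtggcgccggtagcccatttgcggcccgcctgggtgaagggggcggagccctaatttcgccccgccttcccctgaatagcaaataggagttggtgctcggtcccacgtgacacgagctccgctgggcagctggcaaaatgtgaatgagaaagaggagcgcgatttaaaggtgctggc
The Otx2 window, chosen among its 4 start sites because it held the most matches, had 3 copies of TAATTA, at 234, 174 and 154 bases before the start, and 1 TAATCC match on the opposite strand at 211 bases. Another Otx2 window, not shown, held 1 TAATTA, and the remaining ones held none of the 3 motifs. TAATTA reads the same on both strands, and none of the matches overlapped. The Wnt1, En1 and Gbx2 windows held none of the 3 motifs. Over 32817 promoters of this length, 6.25% held TAATCC, 4.85% TAATTA and 3.21% CTTTGAT. These shares are for windows not chosen by their matches, unlike the Otx2 window. A match is a description of letters and not a binding site.

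Values below are intensities on the linear scale of the deposited table, given for replicates 1, 2 and 3 in that order. Group means carry the SD of 3 arrays. A difference between groups is one of log2(intensity + 16), with its SE, from a model fitted to all 12 arrays, and a fold is taken from it. A gene is said to have passed where limma's adjusted p over the 12280 genes was under 0.05. The filter lay at an intensity of 11.9, and a group at or below it cannot be told from a dim background, so a fold against it depends on the added 16. Levels are compared within a gene only, since the brightness of a probe set depends on its probes.

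**Figure D1:**
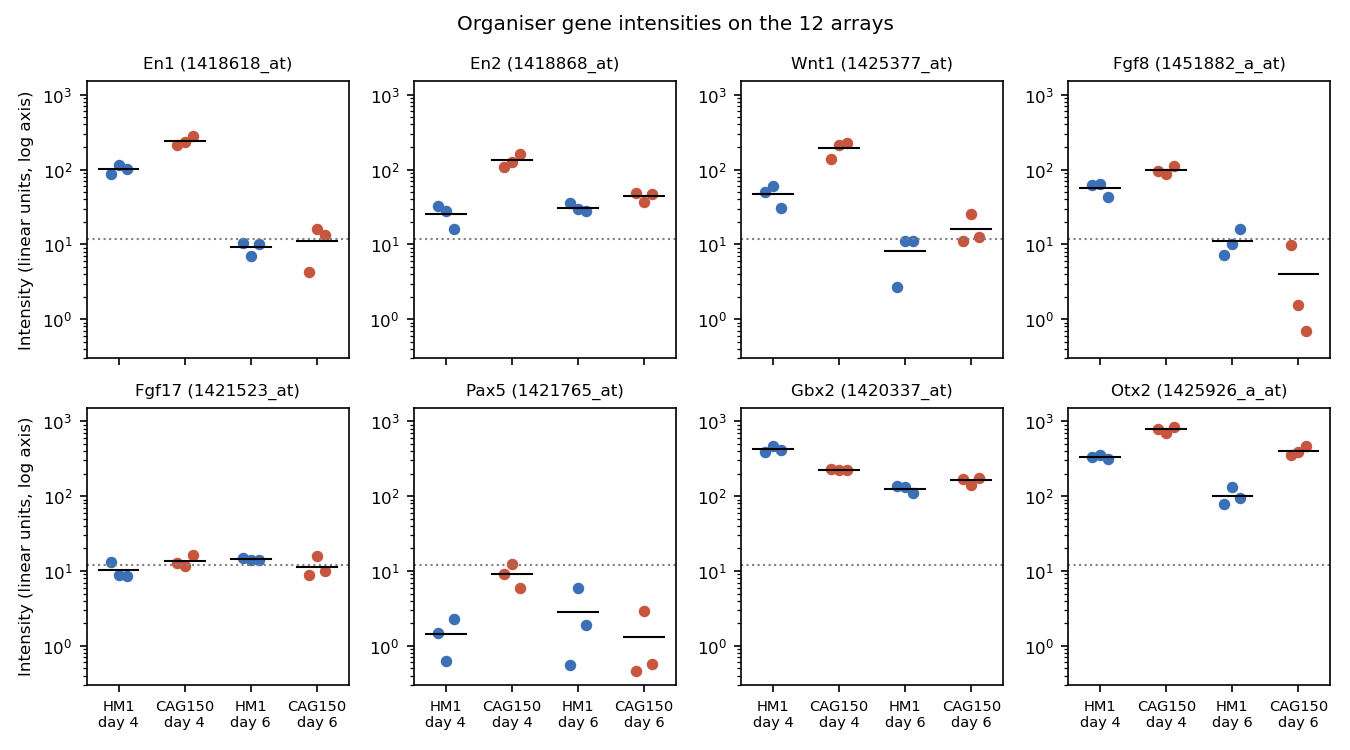
Intensity (linear units on a log axis) of 8 organiser genes on the 12 arrays, with points for single arrays (HM1 blue, CAG150 red), a black bar for each group mean and a dotted line at the filter intensity of 11.9. En1, Wnt1 and Fgf8 are above the line at day 4 on every array and near or below it at day 6, while Pax5, shown by the dimmer of its probe sets, stays near or below the line throughout.

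At day 4 the organiser genes with signal were mostly higher in CAG150, and Gbx2 was lower. Of the 7 genes kept, 5 were higher and passed, 1 was lower and passed, and Fgf17 did not pass. Over all genes 15.8% passed at day 4, with 7.87% higher and 7.92% lower. With each array centred on its median, these were 4.35% and 9.49%. The groups did not overlap for 6 of the 7, against 34.4% of all genes. The median difference of the 7 was 1.15 and that of all genes 0.01. The set was chosen with this contrast known, so nothing is read from these counts.

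Among the secreted signals, Wnt1, the organiser's Wnt ligand, had intensities of 49.8, 60.7 and 31.0 in HM1 and 138.7, 212.3 and 226.6 in CAG150 at day 4. Every CAG150 array was above every HM1 array, and HM1 replicate 3 was the lowest. The difference was 1.73 ± 0.23, or 3.31-fold, the third largest of the rises that passed at day 4. Fgf8 read 62.4, 64.8 and 42.7 in HM1 and 94.6, 87.2 and 110.4 in CAG150. The groups did not overlap, but the step was smaller, at 0.65 ± 0.18 or 1.57-fold. Fgf8 no longer passed with median centring (0.59), quantile normalization (0.57) or a pseudocount of 1 (0.79), nor without HM1 day 4 replicate 3 (0.51), CAG150 day 4 replicate 1 (0.67) or CAG150 day 4 replicate 3 (0.57). Fgf17, a relative of Fgf8 at the isthmus, stayed near the filter on its brighter probe set, with 10.2 ± 2.52 in HM1 and 13.7 ± 2.45 in CAG150 and a difference of 0.18 ± 0.11. Its second probe set was dimmer still, with 6.32 as the highest value on any array.

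The engrailed factors stood with Wnt1. En2 had 32.3, 28.2 and 15.8 in HM1 against 107.7, 127.4 and 161.1 in CAG150 at day 4, a difference of 1.84 ± 0.16 or 3.59-fold. En1, which acts earlier and is needed for the midbrain and cerebellum to form, had 87.4, 115.2 and 100.8 in HM1 against 212.7, 233.6 and 284.2 in CAG150, a difference of 1.15 ± 0.16 or 2.21-fold. For both genes the lowest CAG150 array lay well above the highest HM1 array.

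The paired-box members with a probe set, Pax5 and Pax8, were dim throughout. Pax5, which shares work with Pax2 at the isthmus, has a pair of probe sets. The dimmer read 1.48, 0.64 and 2.27 in HM1 and 9.02, 12.6 and 6.00 in CAG150 at day 4, and these groups did not overlap, although only 1 array of the 12 exceeded the filter intensity. In a fit over every probe set without a filter it passed at day 4 (0.52 ± 0.13), where its brighter probe set did not (0.14 ± 0.25). That brighter one read 9.19 ± 4.32 in HM1 and 12 ± 6.78 in CAG150. Pax8 on its brighter probe set was at 10.7 ± 5.27 in HM1 and 16.6 ± 3.54 in CAG150, with overlapping groups, and its other probe set did not exceed 9.90 on any array. Neither Pax5 nor Pax8 was kept by the filter. The same Pax5 probe set passed in that fit between days in CAG150 (-0.54 ± 0.13), and no other probe set of Pax5 or Pax8 passed in any comparison.

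The border pair went opposite ways at day 4. Otx2 had 331.9, 352.9 and 312.6 in HM1 and 800.1, 703.3 and 843.9 in CAG150. Gbx2 had 394.5, 464.2 and 415.3 in HM1 and 230.8, 222.0 and 223.6 in CAG150. In neither gene did the groups overlap. Otx2 was higher in CAG150 by 1.19 ± 0.15 (2.29-fold), and Gbx2 lower by a difference of -0.86 ± 0.10 (1.82-fold). Each kept its sign and passed under every alternative tried.

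**Figure D2:**
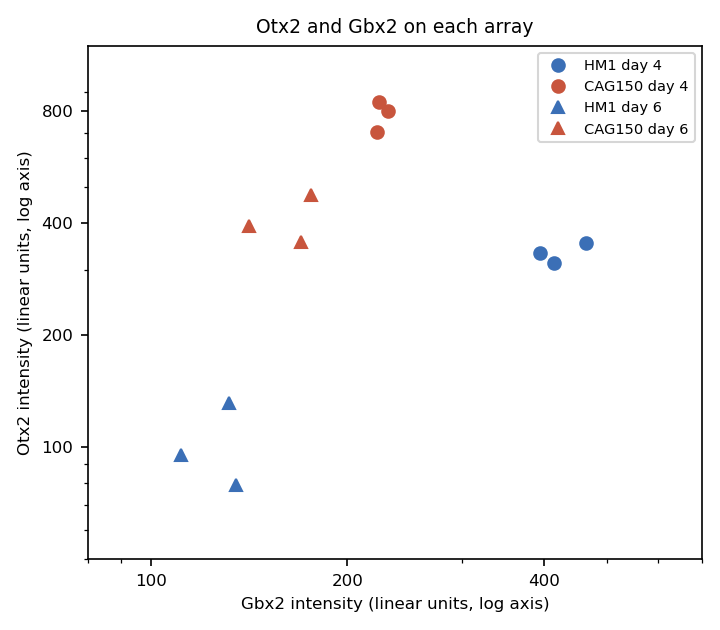
Intensity of Otx2 (vertical) against that of Gbx2 (horizontal; both linear units on log axes), 1 point for each of the 12 arrays, with circles for day 4, triangles for day 6, blue for HM1 and red for CAG150. The 4 groups lie apart: the CAG150 arrays of day 4 (top) lie above and to the left of the HM1 arrays of day 4 (right), and the HM1 arrays of day 6 (bottom left) are lowest in both genes.

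At day 6 the line differences of En1, En2, Wnt1 and Fgf8 did not pass, while Otx2 was still higher in CAG150. Of the 7 genes, 2 were higher in CAG150 and passed (Otx2 and Gbx2) and 5 did not pass, where 21.4% of all genes passed, 10.1% higher and 11.2% lower (6.6% and 13.2% with median centring). The groups did not overlap for 3 of the 7, against 38.6% of all genes. The median difference was 0.33 for the 7 and 0 for all genes. Otx2 was also the only one of the 7 that passed as higher at both days, which 3.79% of all genes did. Here too the set was chosen with the contrast known, and nothing is read from the counts.

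Otx2 at day 6 had 79.2, 131.5 and 95.1 in HM1 and 354.8, 392.8 and 475.5 in CAG150. The lowest CAG150 array was above the highest HM1 array of either day, and the difference at day 6 was 1.86 ± 0.15, or 3.63-fold. Gbx2 had 135.1, 131.5 and 111.3 in HM1 and 169.8, 141.5 and 176.0 in CAG150, so the side on which it was higher had turned since day 4. That day 6 difference was small, at 0.33 ± 0.10 or 1.26-fold. Its call was lost with median centring (0.27), quantile normalization (0.30), no filter or the replicate number as a block (0.33 each), and without CAG150 day 4 replicate 2 (0.33), HM1 day 6 replicate 2 (0.36), HM1 day 6 replicate 3 (0.25), CAG150 day 6 replicate 1 (0.30) or CAG150 day 6 replicate 3 (0.27).

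Wnt1, Fgf8 and En1 were dim at day 6, while En2 stayed above the filter intensity on every array. En2 kept a step between the lines, with 35.9, 29.3 and 28 in HM1 and 48.5, 37.3 and 47.6 in CAG150, groups that did not overlap, yet the difference of 0.36 ± 0.16 did not pass. En1 read 10.6, 7.07 and 10.1 in HM1 and 4.25, 16 and 13.5 in CAG150. Wnt1 read 2.66, 10.9 and 11.1 in HM1 and 11, 25.2 and 12.4 in CAG150. Fgf8 read 7.30, 10.2 and 16.2 in HM1 and 9.69, 1.55 and 0.70 in CAG150. In these 3 genes the lines overlapped, most arrays lay at or below the filter intensity, and none of the differences passed (0.09 ± 0.16, 0.41 ± 0.23 and -0.46 ± 0.18). Fgf8 passed, at -0.66, when CAG150 day 6 replicate 1 was left out.

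Between day 4 and day 6 most of the organiser genes with signal fell in both lines. In HM1, 5 of the 7 were lower at day 6 and passed and 2 did not pass, where 38.9% of all genes passed, 20.4% higher and 18.5% lower (14.3% and 25.1% with median centring). In CAG150, 6 were lower and passed and 1 did not pass, where 44.4% of all genes passed, 22.5% higher and 21.9% lower (16.1% and 28.3% with median centring). The groups did not overlap for 6 of the 7 in each line, against 49.1% of all genes in HM1 and 55% in CAG150. En1, Wnt1, Fgf8, Gbx2 and Otx2 were lower and passed in both lines, which 13.8% of all genes did. Median differences of the 7 were -1.41 in HM1 and -1.28 in CAG150, and those of all genes were 0 in each. The set was chosen with the day differences known. The filter also used the mean over all arrays, so En1, Wnt1 and Fgf8, near or below it at day 6, passed it largely through day 4. Nothing is read from these counts and medians.

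With the pseudocount of 16, En1 had the largest difference among all genes that passed as lower in CAG150, from 243.5 ± 36.8 at day 4 to 11.2 ± 6.19 at day 6 (-3.27 ± 0.16, or 9.64-fold). In HM1 it went from 101.1 ± 13.9 to 9.25 ± 1.90 (-2.21 ± 0.16). Wnt1 went from 192.5 ± 47.2 to 16.2 ± 7.84 in CAG150 (-2.69 ± 0.23) and from 47.2 ± 15.1 to 8.22 ± 4.82 in HM1 (-1.37 ± 0.23). Fgf8 went from 97.4 ± 11.9 to 3.98 ± 4.96 in CAG150 (-2.53 ± 0.18) and from 56.6 ± 12.1 to 11.3 ± 4.56 in HM1 (-1.41 ± 0.18). All 3 ended within the dim range, so the sizes and the rank of En1 rest on the pseudocount. With pseudocounts of 1 and 64 the CAG150 differences were -4.48 and -2.03 for En1, -3.55 and -1.66 for Wnt1, and -4.77 and -1.25 for Fgf8. At a pseudocount of 1 the fall of Fgf8 was thus larger than that of En1.

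En2 did not follow En1 in HM1, where it was at 25.4 ± 8.57 at day 4 and 31.1 ± 4.21 at day 6 with overlapping arrays (0.20 ± 0.16). In CAG150 it fell from 132.1 ± 27.0 to 44.5 ± 6.22 (-1.28 ± 0.16). Otx2 fell by a difference of -1.59 ± 0.15 in HM1 and -0.92 ± 0.15 in CAG150, and Gbx2 by -1.63 ± 0.10 and -0.44 ± 0.10. Fgf17 stayed near the filter, with differences of 0.22 ± 0.11 in HM1 and -0.12 ± 0.11 in CAG150.

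**Figure D3:**
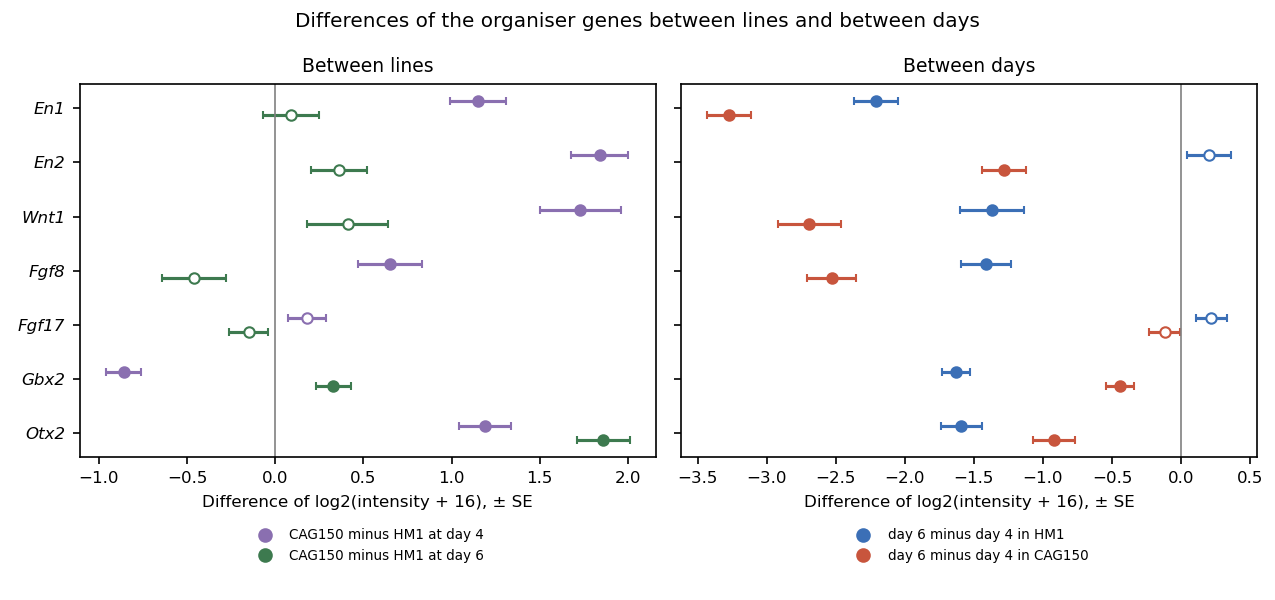
Differences of log2(intensity + 16) ± SE for the 7 organiser genes kept by the filter, between lines at each day (left) and between days in each line (right); filled points passed at an adjusted p under 0.05 over all genes and open points did not. At day 4 En1, En2, Wnt1, Fgf8 and Otx2 are filled on the right of 0 and Gbx2 on the left, and between days every filled point lies on the left of 0.

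The difference between the day differences, CAG150 minus HM1, was -1.06 ± 0.23 for En1, -1.48 ± 0.23 for En2, -1.32 ± 0.33 for Wnt1 and -1.11 ± 0.25 for Fgf8. Gbx2 had 1.19 ± 0.14, and these 5 genes passed, where 3.61% of all genes passed, 1.58% higher and 2.03% lower. The set was chosen with differences between lines and days known, so nothing is read from this count. En1, Wnt1 and Fgf8 were dim in both lines at day 6, so their interactions depend on the day 4 difference and on dim day 6 signal. Otx2 had 0.67 ± 0.21 and Fgf17 -0.33 ± 0.15, and neither passed. En2 and Gbx2 passed under every alternative tried. The calls of En1, Wnt1 and Fgf8 were lost on leaving out 5, 8 and 7 of the 12 arrays in turn, none of which changed the sign. With a pseudocount of 1 none of these 3 passed (-1.15, -1.03 and -2.49), and Wnt1 and Fgf8 did not pass with quantile normalization (-1.26 and -1.02) or no filter (-1.32 and -1.11) either. Otx2 passed (0.84) without HM1 day 6 replicate 2.

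By group, the order of the levels differed between members. En1, Wnt1 and Fgf8 were highest in CAG150 at day 4 and next in HM1 at day 4, with the day 6 groups lowest and overlapping each other. En2 was highest in CAG150 at day 4, then in CAG150 at day 6, with both HM1 groups lowest and overlapping. For Otx2 the order was CAG150 at day 4, CAG150 at day 6, HM1 at day 4 and HM1 at day 6, with the middle groups only just apart (354.8 as the lowest CAG150 array of day 6 and 352.9 as the highest HM1 array of day 4). Gbx2 was highest in HM1 at day 4, then CAG150 at day 4, CAG150 at day 6 and HM1 at day 6, and no neighbours overlapped.

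Profiles over the 12 arrays were compared by the root mean square distance between log2 values, each gene centred on its own mean. Among the members, En1 and Wnt1 were closest (0.49), followed by En1 and Fgf8 and by Wnt1 and Fgf8 (0.57 each), whereas En1 and its paralog En2 lay 1.16 apart. Over all genes tested, En2 was nearest to Nkd1 (0.29), Apcdd1 (0.31) and Wnt5a (0.33). Nearest to Fgf8 were Il17rd (0.20), Qprt and Mnd1 (0.32 each), and nearest to Wnt1 were Il17rd and En1 (0.49 each) and Maob (0.54). En1 was nearest to Tnfrsf19 (0.35), Il17rd (0.48) and Wnt1. Otx2 was nearest to its paralog Otx1 (0.34), then Dmrt3 and Tal2 (0.38 each), and Gbx2 to Sirpa (0.20), Ap1s3 (0.23) and Sox1 (0.24). The Fgf17 profile was nearly flat, with Ift140 (0.09), Fam217b and Rhobtb2 (0.10 each) as its neighbours.

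Genes of the pathways around the organiser were taken from lists set by role, with earlier results of these arrays known. Counts and adjusted p-values of the listed genes are therefore a description and lend the members no independent support. The counts of this and the following lists stand beside the shares of all genes that passed. In CAG150 7.87% were higher and 7.92% lower at day 4, and 10.1% and 11.2% at day 6. Between days 20.4% rose and 18.5% fell in HM1, and 22.5% and 21.9% in CAG150. Of 13 FGF feedback genes and targets 12 were tested, and 3 were higher and 2 lower in CAG150 at day 4, with a list median of 0.10. Il17rd, a membrane brake on FGF signalling made at the isthmus, had 390.1 ± 33.1 in the HM1 and 669.7 ± 34.7 in the CAG150 arrays of day 4 (0.76 ± 0.11, adjusted p = 0.00059). At day 6 it was at 138 ± 14.7 and 107.1 ± 16.1, with day differences of -1.40 ± 0.11 in HM1 (adjusted p = 1e-06) and -2.48 ± 0.11 in CAG150 (adjusted p = 5.5e-09) and an interaction of -1.08 ± 0.16 (adjusted p = 0.0022). Its values thus followed those of Fgf8. Spry1, another brake that FGF signalling induces, was 1.54-fold higher in CAG150 at day 4 (adjusted p = 0.0084). Dusp6, a phosphatase induced by ERK signalling, was 1.82-fold lower at day 4 (adjusted p = 0.00032) and 2.08-fold lower at day 6 (adjusted p = 4.4e-05), so the FGF readouts did not all move one way. At day 6, 2 were higher and 6 lower, with a median of -0.34; without HM1 day 6 replicate 2 or CAG150 day 6 replicate 3 only 1 was higher. Egr1, an immediate early gene, was 2.77-fold lower there (adjusted p = 5.8e-07), and Cnpy1, which helps FGF receptor signalling at the isthmus, 1.58-fold higher (adjusted p = 0.0025). Between days 3 rose and 6 fell in HM1, and 2 rose and 7 fell in CAG150.

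Of 11 other FGF ligands and receptors 10 were tested, and 2 were higher and 2 lower in CAG150 at day 4 (1 higher without HM1 day 4 replicate 1, CAG150 day 4 replicate 1 or CAG150 day 4 replicate 3), 1 higher and 2 lower at day 6. Fgf15, a ligand of the midbrain and hindbrain, was at 240.8 ± 15.7 in HM1 and 131.6 ± 8.81 in CAG150 on day 4 (a difference of -0.80 ± 0.12, adjusted p = 0.00083), on the opposite side from Fgf8. Fgf5, a ligand of the early epiblast, went the same way, with 45.1 ± 5.46 and 3.75 ± 4.78 at day 4 (-1.65 ± 0.20, adjusted p = 0.00015). Fgf18, the other isthmic relative of Fgf8, was at 7.56 ± 5.21 and 12.9 ± 1.42 at day 4. By day 6, when Fgf8 had fallen, Fgf18 had risen to 38.7 ± 5.48 in HM1 (1.23 ± 0.13, adjusted p = 1.6e-05) and 35.5 ± 3.38 in CAG150 (0.83 ± 0.13, adjusted p = 0.00028). Fgfr3, a receptor, rose with a difference of 2.00 ± 0.12 in HM1 (adjusted p = 9e-08) and 2.02 ± 0.12 in CAG150 (adjusted p = 6.3e-08). Between days 3 of the 10 rose and 3 fell in HM1, and 3 rose and 2 fell in CAG150. With 10 genes tested and counts this close to the shares over all genes, nothing is read from the counts of this list.

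Wnt genes were more often higher than lower in CAG150. Of 23 ligands, receptors and targets 21 were tested, and 9 were higher and 3 lower at day 4, with a list median of 0.29. Apcdd1, a Wnt inhibitor that Wnt signalling induces, was at 181 ± 66 in HM1 and 710.5 ± 117.9 in CAG150 (1.92 ± 0.22, adjusted p = 7.5e-05), and Nkd1, another induced inhibitor, at 101 ± 9.94 and 299.5 ± 28.9 (1.43 ± 0.12, adjusted p = 6.2e-06). Wnt5a, a ligand of the midbrain floor, was 2.49-fold higher (adjusted p = 6.3e-05). These are also the 3 profiles nearest to En2. Axin2, a general readout of canonical Wnt signalling, was singled out here for that role after its values were seen. It was at 310.3 ± 46.2 and 386.6 ± 55 at day 4, a difference that did not pass (0.30 ± 0.13). At day 6 it was at 126.1 ± 11.8 and 215.6 ± 24.5, which passed (0.70 ± 0.13). Sp5 and Lef1 of the list did not pass at day 4 either (0.20 ± 0.20 and -0.09 ± 0.17). At day 6 Lef1 passed as higher (1.39 ± 0.17) and Sp5 did not pass (0.06 ± 0.20). At day 6, 10 of the 21 were higher and 4 lower, with a median of 0.28. Rspo2, a secreted enhancer of Wnt signalling, was then at 45.1 ± 5.82 in HM1 and 807.6 ± 109.5 in CAG150 (3.75 ± 0.17, adjusted p = 2.2e-08), and its relative Rspo3 at 8.96 ± 1.95 and 234.5 ± 34.3 (3.32 ± 0.10, adjusted p = 8.7e-10), at a time when Wnt1 itself was dim in both lines. Between days 4 genes of the list rose and 9 fell in HM1, and 7 rose and 8 fell in CAG150. Apcdd1 fell in CAG150 (-1.87 ± 0.22, adjusted p = 2e-05), with an interaction of -1.83 ± 0.31 (adjusted p = 0.0058), and Sp5, a direct Wnt target, fell in HM1 (-1.61 ± 0.20, adjusted p = 3.9e-05) and in CAG150 (-1.75 ± 0.20, adjusted p = 1.5e-05).

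Other regulators of midbrain and isthmus were also more often higher than lower in CAG150 at day 4. Of 18 listed, 15 were tested, with 8 higher and 2 lower and a median of 0.44; without HM1 day 4 replicate 1 or CAG150 day 4 replicate 3, 1 was lower. Lmx1a, Dmbx1 and Barhl1 lay below the filter. Pax3 and Pax7, paired-box factors of the dorsal neural tube and midbrain roof, were 2.93-fold (adjusted p = 5.9e-05) and 2.62-fold (adjusted p = 0.00039) higher. Mab21l2, a midbrain and eye gene, was 2.98-fold higher (adjusted p = 0.00011) and Otx1, the paralog of Otx2, 2.38-fold (adjusted p = 0.00097). At day 6, 5 were higher and 4 lower, with a median of 0.10. Otx1 was then at 4.34 ± 4.09 in HM1, below the filter intensity, and at 102 ± 30.03 in CAG150 (2.52 ± 0.20, adjusted p = 2.4e-06), so it differed on the same side as Otx2 at both days. Hes3, a repressor made at the isthmus that holds progenitors there, was at 61.2 ± 6.89 in HM1 and 136 ± 24.1 in CAG150 on day 4 and at 44.4 ± 12.9 and 25 ± 5.83 at day 6, and its interaction of -1.51 ± 0.24 passed (adjusted p = 0.0038). Sp8, a factor that modulates Fgf8, had an interaction of -1.32 ± 0.17 (adjusted p = 0.0012), from 460.4 ± 12.4 in HM1 and 483.7 ± 23.8 in CAG150 at day 4 to 519 ± 28.7 and 211.5 ± 44 at day 6. Between days 9 rose and 3 fell in HM1, and 9 rose and 4 fell in CAG150.

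**Figure D4:**
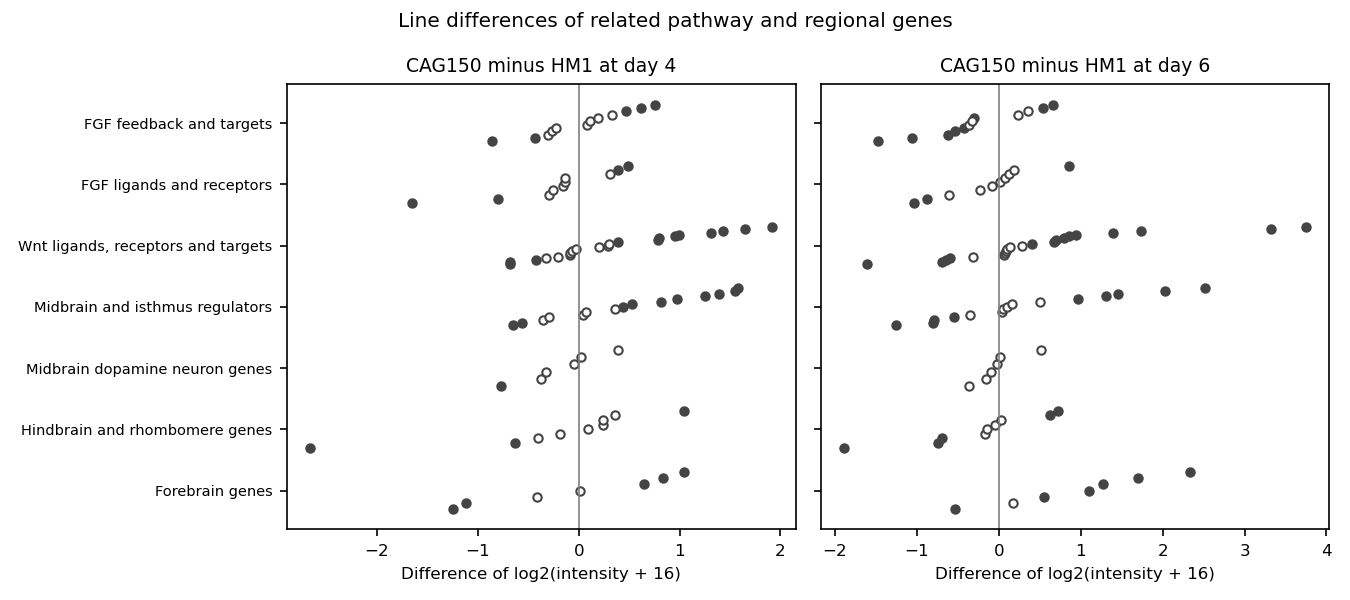
Differences of log2(intensity + 16), CAG150 minus HM1, at day 4 (left) and day 6 (right) for the tested genes of 7 lists of related pathway and regional genes, 1 point a gene, filled where the gene passed at an adjusted p under 0.05 and open where it did not. The Wnt and midbrain lists hold more filled points on the right of 0 than on the left at both days, and the dopamine neuron list holds a single filled point at day 4 and only open points at day 6.

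Genes of midbrain dopamine neurons, which arise next to the organiser, were few and dim. Of 10 listed, 6 were tested, and the 1 that passed at day 4 was Nr4a2, a regulator of their fate, which was 1.7-fold lower in CAG150 (adjusted p = 0.0067); without HM1 day 4 replicate 3, 2 were lower. At day 6 limma called none of the 6, while 1 had an unadjusted p under 0.05, and without CAG150 day 4 replicate 1 it called 1 as higher. The smallest p there belonged to Th, the rate-limiting enzyme of dopamine synthesis, at 11.9 ± 1.03 in HM1 and 23.9 ± 5.48 in CAG150 (adjusted p = 0.069). The dopamine transporter gene Slc6a3, Aldh1a1, Foxa1 and Drd2 lay below the filter. Between days 3 rose in HM1 and 4 in CAG150, and the rest did not pass.

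Regions on either side were read from their own lists. Of 16 hindbrain genes 9 were tested, with 1 higher (2 without HM1 day 4 replicate 3) and 2 lower in CAG150 at day 4 and 2 higher and 3 lower at day 6, and with medians of 0.09 and -0.14. Egr2, which patterns the rhombomeres, at day 4 was at 181.3 ± 35.4 in HM1 and 15.3 ± 6.30 in CAG150 (-2.66 ± 0.23, adjusted p = 9.2e-06), on the same side as Gbx2. It did not stand for its list. Epha4 was also lower (-0.63 ± 0.10, adjusted p = 0.0011), Meis1 was higher (1.04 ± 0.09, adjusted p = 6.6e-06), and the Hox genes tested did not pass at day 4. Between days 8 rose in HM1 and 1, Egr2, fell (-1.03 ± 0.23, adjusted p = 0.0038). In CAG150 8 rose and Egr2 did not pass. Hoxb2, a rhombomere gene, went from 45 ± 11.8 to 602.6 ± 18.4 in HM1 (3.36 ± 0.13, adjusted p = 2.3e-09) and from 55.7 ± 10.1 to 532.2 ± 11.3 in CAG150 (2.94 ± 0.13, adjusted p = 4.5e-09), while Gbx2 fell. Gbx1, the paralog of Gbx2, went from 9.75 ± 4.67 to 137.3 ± 5.30 in HM1 (2.59 ± 0.14, adjusted p = 2.9e-08), the opposite direction to Gbx2.

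Of 16 forebrain genes 7 were tested, with 3 higher and 2 lower in CAG150 at day 4 and a median of 0.01. At day 6, 5 were higher and 1 lower, with a median of 1.10; none was lower without HM1 day 6 replicate 1 or 3 or CAG150 day 6 replicate 1 or 3. Fezf2 had the largest difference of the list at day 4, where it was 2.37-fold lower (adjusted p = 0.00049), on the opposite side from Otx2. At day 6 Fezf2 was 1.47-fold higher (adjusted p = 0.043). Dmrta2, a regulator of the cortical hem, was 2.05-fold higher at day 4 (adjusted p = 0.00036) and 5.05-fold at day 6 (adjusted p = 2.9e-07), as Otx2 was at both days. Lhx2, a forebrain and eye factor, was 2.17-fold lower at day 4 (adjusted p = 2.5e-05) and 2.4-fold higher at day 6 (adjusted p = 6.5e-06). Between days 1 forebrain gene rose and 5 fell in HM1, and 1 rose in CAG150 and the rest did not pass.

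Markers of the cells present differed between the lines as well. All 10 progenitor and all 12 neuron markers listed were kept by the filter, but so were 9 of 10 pluripotent markers. Between days 11 of the neuron markers rose in HM1 and 11 in CAG150, where 20.4% and 22.5% of all genes rose. The exceptions were Stmn2 in HM1 (-0.03 ± 0.09) and Rbfox3 in CAG150 (-0.08 ± 0.21). Of the progenitor markers 7 rose and 2 fell in HM1, and 9 rose and 1 fell in CAG150. Sox1 fell in both lines. Summed intensities of the progenitor markers were 9411 to 10910 in HM1 and 11650 to 12200 in CAG150 at day 4, and 17160 to 18380 and 20110 to 20450 at day 6. Those of the neuron markers were 3663 to 3971 and 2624 to 2874 at day 4, and 8806 to 10270 and 13500 to 14320 at day 6. The lower sum of CAG150 at day 4 was set by Stmn2, a microtubule regulator of neurons and a bright probe set, which was at 2108 ± 100.9 in HM1 and 607 ± 56.8 in CAG150 (-1.77 ± 0.09, adjusted p = 1.2e-07). By count, 5 of the 12 neuron markers were higher and 2 lower in CAG150 at day 4, with a median of 0.29. Rbfox3, a marker of maturing neurons, was 2.98-fold higher at day 4 (adjusted p = 0.00027) but did not rise between days in CAG150. At day 6, 10 of the 12 were higher and the rest did not pass, with a median of 0.56. Of the progenitor markers, 3 were higher at day 4 and the rest did not pass. At day 6, 2 were higher and 1 lower, and 1 was higher without HM1 day 4 replicate 1, CAG150 day 4 replicate 1 or 2, HM1 day 6 replicate 1 or 2, or CAG150 day 6 replicate 1 or 3, and 1 to 5 were under the other settings tried. In such bulk samples fewer cells of a type and less RNA per cell cannot be told apart.

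Some members are also made outside the organiser, and the markers of those cells stood as follows. Pluripotent and epiblast markers (9 of 10 tested) were lower in CAG150 for 7 genes at day 4 and 7 at day 6. Their sum at day 4 was 3478 to 3877 in HM1 and 1484 to 2098 in CAG150. That was on the opposite side from Otx2 and on the same side as Gbx2. At day 6 the sum was 2984 to 3717 and 1407 to 1424, on the opposite side from Otx2 and from the small Gbx2 difference. Of the primitive streak markers 4 of 10 were tested; limma called none at day 4, 1 had an unadjusted p under 0.05, and 1 was called as lower without HM1 day 4 replicate 1. Their sums there were 57.1 to 74.11 in HM1 and 50.64 to 62.2 in CAG150, which overlap, and Mixl1, Tbx6, Evx1, Gsc and Msgn1 lay below the filter. At day 6 the sums did not overlap, at 66.9 to 81.9 in HM1 and 93.4 to 107.2 in CAG150. Eomes, a T-box factor, was at 18.6, 28.4 and 16.5 in HM1 and at 56.9, 35.5 and 41.5 in CAG150. It was the 1 of the 4 streak markers tested that passed as higher in CAG150 at day 6 (0.70 ± 0.18, adjusted p = 0.013), and its call was lost without HM1 day 6 replicate 3 or CAG150 day 6 replicate 1 (0.56 to 0.84 over the arrays left out). Its interaction of 1.05 ± 0.25 passed (adjusted p = 0.038), but not without any of 8 of the 12 arrays or with quantile normalization, no filter, a pseudocount of 1 or the replicate block. Kidney and ear markers had 4 of 11 tested, with sums of 413.5 to 473.5 in HM1 and 477.8 to 480.3 in CAG150 at day 4 and 838.2 to 943.1 and 786.5 to 904.6 at day 6, and Osr1, Wt1, Foxd1, Gata3 and Oc90 lay below the filter. Lhx1 of that list, which neurons also make, passed as higher in CAG150 at day 4 (1.64-fold, adjusted p = 0.0043), and without HM1 day 4 replicate 1 a second gene did. Fibroblast and smooth muscle markers (8 of 10 tested) were lower in CAG150 for 5 genes at day 4 and 5 at day 6, with sums of 3276 to 3776 in HM1 and 499.4 to 569.6 in CAG150 at day 4, and 4816 to 5764 and 297.1 to 328.4 at day 6. The part of these cell markers in the organiser gene differences was not tested.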

How the data were processed

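Total RNA of 12 samples was measured on Affymetrix mouse arrays, 3 for each line and day. The authors deposited intensity values, linear and scaled on each array so that the mean of the probe sets, leaving out 2% at either end, is 150, which was read from the values. What software made them is not given in the sources. Median intensities per array were 19.2 to 25.9, and the number of arrays limits precision.

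Of 45101 probe sets, 64 controls were left out. Values were taken as log2(intensity + 16), with the brightest single-symbol probe set for each gene and genes above the 40th percentile of mean signal (4.8). A model with 4 group means was fitted with limma 3.58.1 in R 4.3.3, checked on simulated data, and p-values were Benjamini-Hochberg adjusted over 12280 genes. The members and lists were chosen with earlier results of these data known. Named were all members; from each list up to 4 passing genes with the largest difference per comparison (or the one with the smallest p where none passed), which may be given in other comparisons; and the 3 nearest profiles. Axin2 was added after values were seen. Alternatives were other normalizations, filters, pseudocounts and probe-set rules, a replicate block and leaving out each array.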

Additional observations from a re-analysis of the deposited data

Results flagged for a closer look

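For 5 genes the interaction term of the model passed, that is, the difference between the lines differed between day 4 and day 6. The day difference in CAG150 minus that in HM1, on the scale of log2(intensity + 16), was -1.06 for En1, -1.48 for En2, -1.32 for Wnt1, -1.11 for Fgf8 and 1.19 for Gbx2, each from 3 arrays a group. Those of En2 and Gbx2 passed under every alternative tried. With a pseudocount of 1 En1 (-1.15), Wnt1 (-1.03) and Fgf8 (-2.49) did not pass, Wnt1 and Fgf8 did not pass with quantile normalization or no filter, and each of these 3 lost its call without some of the arrays. All 4 of the first stood higher in CAG150 at day 4 and did not pass between the lines at day 6, where En1, Wnt1 and Fgf8 were near or below the filter in both lines. Gbx2 was lower in CAG150 at day 4 (-0.86) under every alternative tried. At day 6 it was higher by 0.33, a call lost with median centring, quantile normalization, no filter, every probe set on its own, the replicate block and without 5 of the 12 arrays in turn. No group was large enough for the test of single outlying arrays.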

How the results depend on the processing

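Over the 12 arrays left out in turn, the number of organiser genes that passed was 5 to 6 at day 4, 1 to 2 at day 6, 5 to 5 between days in HM1, 6 to 6 in CAG150 and 2 to 5 in the interaction. At day 6 it was 1 with quantile normalization, median centring, no filter or the replicate number as a block. In the interaction it was 3 with quantile normalization, no filter or a filter at the 60th percentile, and 2 with a pseudocount of 1; at that stricter filter, which leaves out Wnt1, Fgf8 and Fgf17, it was 3 between days in HM1. Of the differences of single members recomputed under an alternative, 669 kept direction and side of the threshold, 48 lost and 2 gained a call, and 1 changed sign: En1 at day 6 ran from -0.04 (without CAG150 day 6 replicate 2) to 0.29 (without CAG150 day 6 replicate 1). The interaction call was lost for En1 without HM1 day 4 replicates 1 or 3, HM1 day 6 replicates 1 or 3 or CAG150 day 4 replicate 3 (-0.95 to -1.06), for Wnt1 without 8 arrays (-1.12 to -1.36) and for Fgf8 without 7 (-0.97 to -1.14), and for Fgf8 with the replicate block. The cause was not tested. Correlations of deviations between same-numbered samples ran from -0.13 to 0.12 over 12 pairs, and in 7 of these pairs the same-numbered samples correlated best. With 3 arrays a group, such weak correlations cannot decide whether replicate numbers pair the samples. List counts moved in 138 cases, by over 1.5 times or to or from none, and not in 2462. Over all genes the interaction passed for 443, against 295 without a filter or without CAG150 day 4 replicate 2, and 270 without CAG150 day 6 replicate 3. Signal near the filter limits what day 6 can show for En1, Wnt1, Fgf8, Fgf17, Pax5 and Pax8.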
